A study of Mus musculus with 2 samples.

Results

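The constitutive proteasome subunit genes were examined on 2 Affymetrix arrays of LM8, a mouse osteosarcoma cell line. Their members were the genes whose annotated symbol is Psma, Psmb, Psmc or Psmd followed by digits, without the interferon-inducible genes Psmb8, Psmb9 and Psmb10. This rule found 35 genes, read by 64 probe sets, among 12393 genes with a probe set of their own. The hPHD4 clone was 1 clone of LM8 cells transfected with a full-length human PHD4 cDNA in the pcDNA3.1 vector. The control clone was 1 clone of the same cells carrying the empty vector, and both had been selected with G418 at 0.5 mg/ml; they are called hPHD4 cells and control cells here. PHD4 is a prolyl hydroxylase of the endoplasmic reticulum membrane, and the series set out to compare expression in cells overexpressing it with expression in control cells. With 1 array per clone there was no replicate and no test, so every difference below is a description of these 2 arrays and has no replicate check. The transgene was not followed, because 0 probe sets were assigned to the mouse gene P4htm alone.

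The proteasome degrades proteins tagged with ubiquitin in the cytosol and nucleus. Its barrel-shaped core is built from outer rings of alpha subunits, encoded by Psma genes, and inner rings of beta subunits, encoded by Psmb genes, and some of the beta subunits carry the proteolytic sites. A regulatory particle caps the core. Its base holds a ring of ATPases, encoded by Psmc genes, which unfold the substrate, and its lid removes the ubiquitin chain. In mammalian cells the subunit genes are known to be induced together when proteasome activity is inhibited, through the transcription factor NRF1, encoded by Nfe2l1, which binds antioxidant response elements.

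Promoters of these genes were therefore searched for the core letters of that element, TGACNNNGC, on both strands. RefSeq promoter sequences (250 bases before to 50 after the start site, GRCm38.p6) were matched by symbol for 28 of the 35 genes. Psma8 was left out of this search. The letters were found in at least 1 promoter of 5 of the 28 genes (17.9%), against 13.99% of all 27025 genes in the table. The windows around these matches are shown because they are the subunit promoters that hold the letters; each runs 5′ to 3′ on the strand of the gene, stops at the start site at the latest, and has the match in capitals. The matches in Psmc6 and Psmd12 are on the opposite strand and appear as the reverse complement.
Psmb5, chr14:54617996-54618082, minus strand: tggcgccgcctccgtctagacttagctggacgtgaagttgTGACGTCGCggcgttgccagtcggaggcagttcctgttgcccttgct
Psmb6, chr11:70525308-70525356, plus strand: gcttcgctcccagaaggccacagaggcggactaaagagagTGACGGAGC
Psmc6, chr14:45329574-45329645, plus strand: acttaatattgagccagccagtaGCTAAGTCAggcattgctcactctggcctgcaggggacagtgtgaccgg
Psmd9, chr5:123228119-123228189, plus strand: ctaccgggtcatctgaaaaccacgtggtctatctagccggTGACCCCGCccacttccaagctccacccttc
Psmd12, chr11:107479278-107479329, plus strand: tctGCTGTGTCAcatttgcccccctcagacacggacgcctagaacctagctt

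A match is a description of letters and not a binding site. The matches in Psmb6, Psmd9 and Psmb5 began 9, 31 and 47 bases before the start site, whereas those in Psmc6 and Psmd12 began 227 and 247 bases before it. The genes with the letters did not share a direction on the arrays. Their median log2 ratio, hPHD4 clone over control clone, was 0.04, beside 0.06 for the 23 subunit genes whose promoter window lacked them. Psmc6 and Psmb5 had log2 ratios of 0.37 and 0.35, Psmb6 lay at 0.04, and Psmd12 and Psmd9 lay at −0.16 and −0.20.

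Of the 35 genes, 34 were measured in both clones. A probe set counted as measured when its signal lay above the 40th percentile of its array on both arrays, at linear signals of 81.1 in hPHD4 cells and 67.8 in control cells. The subunit genes were bright: in the control clone their signal was a median of 40.7 times the floor, and Psmd9, the dimmest, was 5.20 times the floor. Of their 64 probe sets 51 were measured, with 1 measured probe set for 21 genes and several for 13. The signals are of bulk cultures, in which fewer cells of a type and less RNA per cell cannot be told apart. Markers of the labelled cell type were present, with all 7 osteoblast markers on the array measured, among them Sp7, Alpl and Ibsp. Of the markers of other cells, 1 of 5 leukocyte (Cd68), 1 of 4 endothelial (Kdr) and 0 of 5 epithelial markers were measured. The summed signal of the osteoblast markers was lower in hPHD4 cells, at 32235 against 41238 in control cells. The sums of the other lists in hPHD4 cells, against control cells, were higher, at 343 against 226 for leukocyte, 229 against 149 for endothelial and 292 against 118 for epithelial markers. Each sum takes the brightest probe set of every marker on the array, measured or not. The epithelial sum thus comes only from markers that were not measured, and the other 2 lists include such markers, so no rise is read from these sums. The part of these markers in the values below was not tested.

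**Figure D1:**
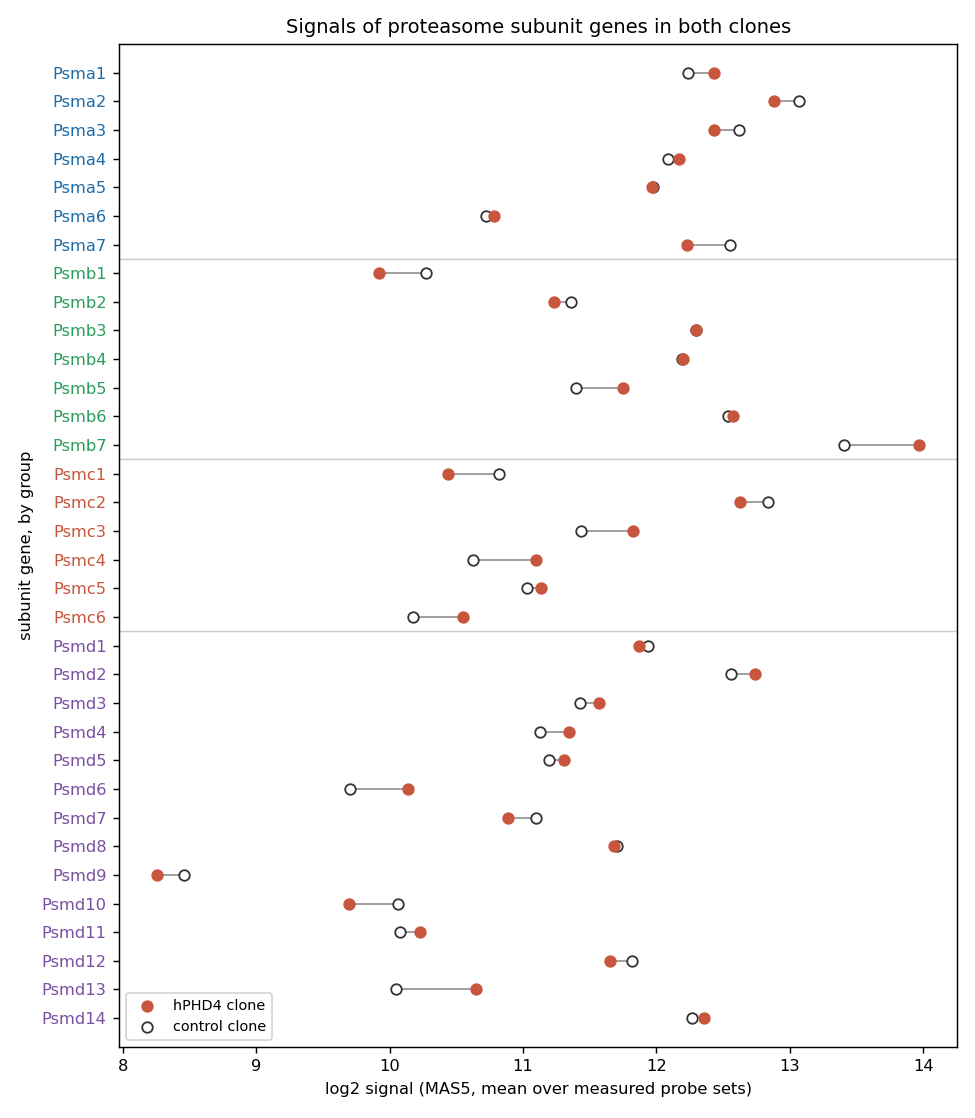
Log2 MAS5 signals (x axis) of the 34 measured subunit genes (y axis, coloured by group) in the hPHD4 clone (filled) and the control clone (open), each point the mean over the measured probe sets of a gene on 1 array. The points of a gene lie close together for most genes; the widest gap is that of Psmd13, at linear signals of 1608 in hPHD4 cells and 1059 in control cells, and levels of different genes are not comparable because their probes differ.

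Taken over the 34 measured genes, the subunit genes were nearly level between the clones. Their median log2 ratio was 0.05, with 19 genes above 0 (55.9%) and 15 below. Above 0 lay 53.6% of all measured genes and 44.8% of the other genes of like signal. Values of the subunit genes ran between −0.38 for Psmc1 and 0.60 for Psmd13. The median over all 7452 measured genes was 0.03, and that of 1341 other genes of like signal was −0.04. With the median of each gene's chromosome subtracted, the subunit median was −0.02. Psmd13 was the only subunit gene higher by 1.5-fold or more in hPHD4 cells (1 of 34), a step passed by 8.94% of all measured genes and 2.98% of the other genes of like signal. No subunit gene (0 of 34) was lower by 1.5-fold or more, against 5.22% of all measured genes and 3.65% of those of like signal. At 2-fold, 0 subunit genes were higher and 0 lower, against 1.89% and 0.98% of all measured genes. Quantile normalization turned the shares of all measured genes past 1.5-fold to 6.68% higher and 6.43% lower.

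At a smaller step, a log2 ratio at least 0.322 from 0, 7 of the 34 genes (20.6%) were higher, beside 22.6% of all measured genes and 12.3% of those of like signal. Lower by this step were 3 genes (8.82%), beside 15.9% and 16.4%. The spread among the subunit genes was an SD of 0.27, against 0.35 for other genes of like signal and 0.43 for all measured genes. Between the quartiles the subunit genes spread over 0.37 and the other genes of like signal over 0.38, so the central part of both distributions had nearly the same width. The SD between probe sets of 1 gene was 0.28 in the brightest of 3 equal groups of genes. This group held 33 of the 34 members. Probe sets of a gene share the same arrays and RNA, so this SD holds no variation between arrays, cultures or clones. It cannot stand in for replicate error, and counts made with it do not show which genes differ beyond such error. It describes individual probe sets, whereas the values of 13 subunit genes are means over several. A log2 ratio farther from 0 than 0.28 was found in 11 subunit genes (32.4%), 7 higher and 4 lower. The share was 34.7% for the other genes of like signal. The remaining 23 genes differed between the clones by less than this SD. Over the 13 subunit genes with several measured probe sets the SD was 0.322, which 10 subunit genes exceeded, Psma7 being the one that no longer did.

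**Figure D2:**
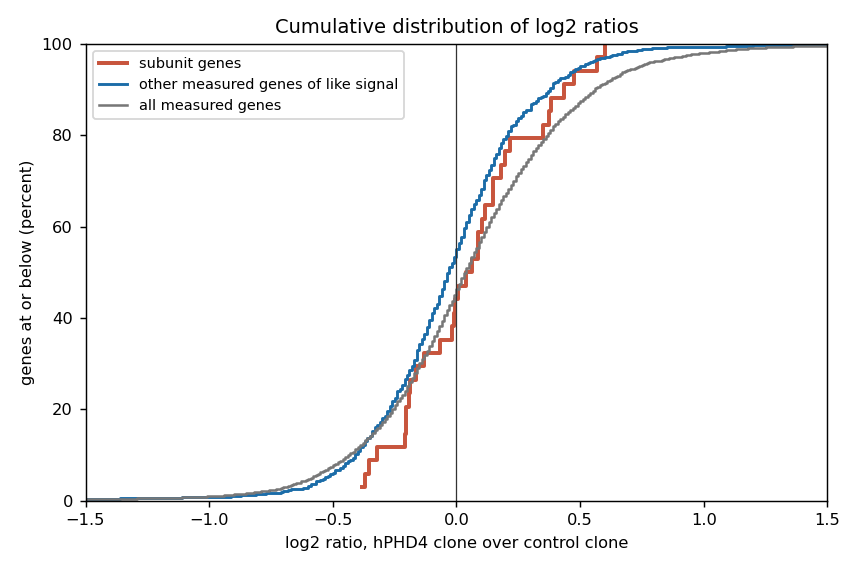
Cumulative share of genes (y axis, percent) at or below each log2 ratio, hPHD4 clone over control clone (x axis, cut at ±1.5), for the 34 subunit genes, 1341 other genes of like signal and all 7452 measured genes. The subunit curve lies within −0.38 and 0.60. It holds 34 genes beside 1341 and 7452, so the lack of longer tails is not read as a trait of the subunit genes.

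The alpha subunits form the gate and outer wall of the core, and their genes had the smallest spread of the 4 groups, an SD of 0.18. None of the 7 measured Psma genes was 0.322 or more from 0. Within that step lay 71.3% of the other genes of like signal and 61.5% of all measured genes, so the count over 7 Psma genes is not read further. The Psma median log2 ratio of −0.01 was on the other side of 0 after quantile normalization and after loess correction. It was so too without probe sets that can match several transcripts, over 5 genes. With all probe sets kept and signals raised to a common floor, the higher of the 2 (81.1), the median was 0.02 over 8 genes. That setting adds Psma8, which was above the floor in hPHD4 cells alone, so its change of sign is not read. Psma7 was the lowest, with linear signals of 4798 in hPHD4 cells and 5989 in control cells. Both of its probe sets had a log2 ratio of −0.320, just inside that step. Psma2 had signals of 7522 in hPHD4 cells and 8595 in control cells (log2 ratio −0.19) and Psma3 of 5520 in hPHD4 cells and 6282 in control cells (−0.19). These alpha genes were lower in the hPHD4 clone, and only Psma7 lay farther from 0 than the SD of 0.28 between bright probe sets. Psma1 was the highest at 5530 in hPHD4 cells against 4831 in control cells, a log2 ratio of 0.19 on 1 measured probe set; its other 2 probe sets lay under the floor on both arrays. It was followed by Psma4 at 0.09. Psma6 averaged 0.06, but its 3 measured probe sets lay at −0.40, 0.08 and 0.50, and Psma5 was at −0.01.

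The eighth alpha gene, Psma8, encodes the alpha subunit of the testis-specific proteasome and was not measured in both clones. Its only probe set had a linear signal of 168 in hPHD4 cells and of 1.87 in control cells, where the floor was 67.8. Against that floor it was higher by at least 2.48-fold in hPHD4 cells, or by at least 2.08-fold against the higher floor of the hPHD4 array (81.1), and the signal in control cells is too far under the floor to give a ratio. It is the only subunit gene seen above the floor in 1 clone alone. The share of all genes on the array with such a pattern was not counted, so nothing is read from this.

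Among the beta subunits, the catalytic genes did not lie together. Psmb7, which encodes the trypsin-like site, had linear signals of 16041 in hPHD4 cells and 10831 in control cells. Its log2 ratio of 0.57 (1.48-fold higher) was the highest of the core genes and rests on 1 probe set. Psmb5, the chymotrypsin-like site and the main target of bortezomib, had signals of 3442 in hPHD4 cells and 2697 in control cells (log2 ratio 0.35). Psmb6, the caspase-like site, had signals of 6088 in hPHD4 cells and 5926 in control cells and a log2 ratio of 0.04. Psmb5 and Psmb7 lay farther from 0 than 0.28, the SD within a gene for the brightest probe sets, and Psmb6 lay nearer to 0.

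The beta subunits without a proteolytic site lay near or below 0. Psmb1 had mean signals of 970 in hPHD4 cells and 1239 in control cells, over a bright probe set at −0.26 and a dim one at −0.45. Its mean log2 ratio of −0.35 was past the step of 0.322, but the bright probe set alone was not. A floor at the 20th percentile put Psmb1 at −0.03. Psmb2 had a log2 ratio of −0.13. Psmb3 and Psmb4 were level, at 0.00 and 0.01, on 2 probe sets each. The median of all 7 Psmb genes was 0.01, and was below 0 after centring on all genes (−0.02), with chromosome medians subtracted (−0.03) or without probe sets that can match several transcripts (−0.05).

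**Figure D3:**
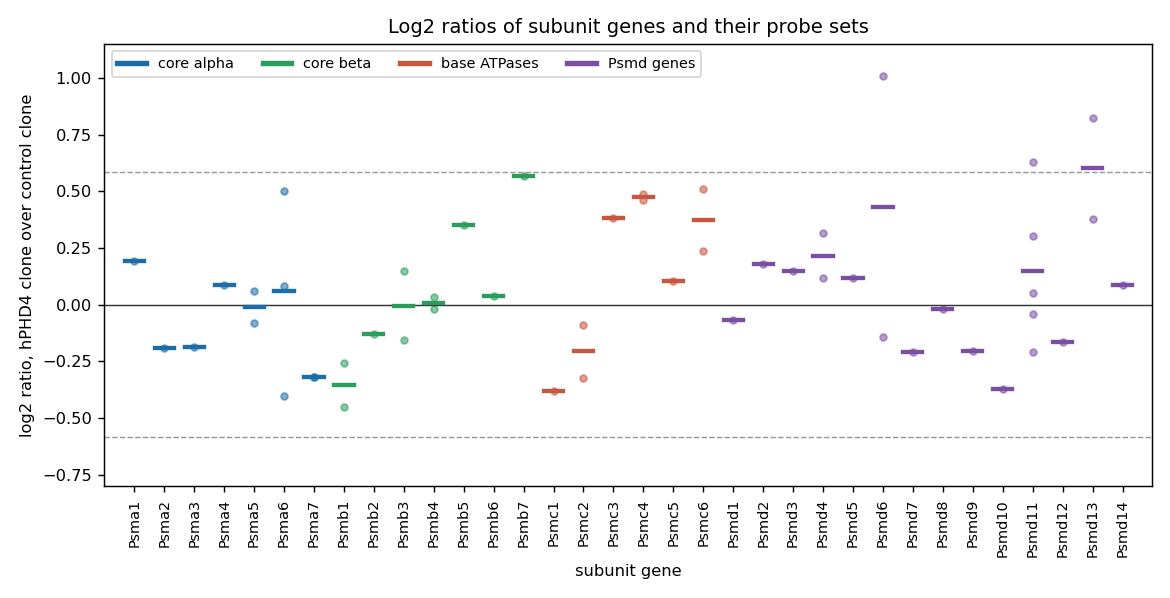
Log2 ratio, hPHD4 clone over control clone (y axis), of each measured subunit gene (bars, mean over its measured probe sets) and of the probe sets themselves (points), coloured by group; dashed lines mark 1.5-fold. Among the bars, Psmd13 alone passes the upper line and Psmb7 lies just under it. The probe sets of 6 genes lie on both sides of 0, farthest apart in Psmd6, Psma6 and Psmd11.

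The base ATPases had the widest spread of the 4 groups, an SD of 0.35 over 6 genes, with a median log2 ratio of 0.24. Their median was above 0 under every alternative tried, between 0.10 and 0.29. Psmc4 had linear signals of 2191 in hPHD4 cells and 1576 in control cells, and its 2 probe sets were close together at 0.46 and 0.49. Psmc3 had signals of 3618 in hPHD4 cells and 2773 in control cells (log2 ratio 0.38). Psmc6, one of the genes with the element letters shown above, had signals of 1502 in hPHD4 cells and 1159 in control cells and probe sets at 0.24 and 0.51. Psmc5 was nearly level, at 0.10.

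The remaining ATPase genes lay the other way. Psmc1 had signals of 1386 in hPHD4 cells and 1807 in control cells, the lowest log2 ratio of all members (−0.38). A floor at the 20th percentile let in another, dim probe set, and the log2 ratio of Psmc1 became 0.23. Psmc2 had signals of 6332 in hPHD4 cells and 7304 in control cells, with both probe sets below 0 (−0.32 and −0.09). In the assembly of the base the ATPases first join in pairs, each with a chaperone, and a grouping by these pairs was made after the values were seen. The pair of Psmc2 and Psmc1 was the one with both log2 ratios below 0 (−0.21 and −0.38). In the pair of Psmc6 and Psmc3 they were 0.37 and 0.38, and in that of Psmc4 and Psmc5 they were 0.48 and 0.10. The chaperone genes of these pairs had the opposite sign to their ATPases, at 0.12 for Psmd5 (with Psmc2 and Psmc1), −0.20 for Psmd9 (with Psmc6 and Psmc3) and −0.37 for Psmd10 (with Psmc4 and Psmc5). Among these genes Psmc1, Psmc3, Psmc4, Psmc6 and Psmd10 lay farther from 0 than the SD between probe sets, and the others did not.

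The 14 Psmd genes hold lid subunits, base subunits without ATPase activity and the base chaperones just named. Their median was 0.10, but it was −0.01 with chromosome medians subtracted and −0.02 without probe sets that can match several transcripts. The 8 lid genes had a median of 0.12. Psmd13, a structural lid subunit, was the highest member of all, with linear signals of 1608 in hPHD4 cells and 1059 in control cells (1.52-fold higher). Its probe sets had log2 ratios of 0.38 and 0.83, so the brighter one alone was below the 1.5-fold step. Psmd14, the deubiquitinase that releases the ubiquitin chain, was nearly level at 5232 in hPHD4 cells and 4922 in control cells, a log2 ratio of 0.09. Its partner in the lid, Psmd7, had signals of 1894 in hPHD4 cells and 2190 in control cells (−0.21), which a floor at the 20th percentile turned to 0.23.

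Psmd6, another lid gene, showed how far probe sets of 1 gene can differ. Its bright probe set had linear signals of 6191 in hPHD4 cells and 6835 in control cells (log2 ratio −0.14). The dim one had 204 in hPHD4 cells and 101 in control cells (1.01), just above the floor in the control clone. Their mean of 0.43 made Psmd6 one of the 7 genes higher by the smaller step, while the brightest probe set alone put it below 0. The 5 probe sets of Psmd11 also lay on both sides of 0, between −0.21 and 0.63, with a mean of 0.15. Psmd3 lay at 0.15, Psmd8 at −0.02 and Psmd12 at −0.16.

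In the base, Psmd2 is a large scaffold that binds ubiquitin-like domains, and Psmd4 is a ubiquitin receptor. Psmd2 had linear signals of 6819 in hPHD4 cells and 6024 in control cells, a log2 ratio of 0.18. Psmd4 had signals of 2600 in hPHD4 cells and 2237 in control cells, with measured probe sets at 0.12 and 0.31. A further probe set of Psmd4 lay above the floor on the control array alone (32.3 in hPHD4 cells and 141 in control cells), and a floor at the 20th percentile put the gene at −0.57. Psmd1, the other scaffold, was level at −0.07. The chaperone gene Psmd10, which encodes gankyrin, was lower, with signals of 829 in hPHD4 cells and 1071 in control cells, and Psmd9 was at 306 in hPHD4 cells and 353 in control cells.

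The 7 genes higher by the smaller step (log2 ratio of at least 0.322) lie on 3 of the 15 chromosomes that carry measured members. They are on chromosome 7 (Psmd13, Psmc4), chromosome 2 (Psmb7, Psmc3) and chromosome 14 (Psmd6, Psmc6, Psmb5). On these chromosomes the medians of all other measured genes were 0.19, 0.11 and 0.14, which with 0.16 for chromosome 1 were the highest among chromosomes that carry members. Of 12 members on chromosomes 2, 7 and 14, 7 were higher by that step, beside 31% of the other measured genes there, and 0 were lower, beside 8.69%. These chromosomes were picked after the values were seen because they hold the 7 genes, so nothing is read from that count. Medians above 0 were not limited to them: 11 of the 15 chromosomes had one, and these carry 29 of the 34 measured members. Among the 29 are the 7 higher genes and the lowest members, Psmc1 on chromosome 12 (median 0.07) and Psmd10 on chromosome X (0.02). Psmd8 on chromosome 7 at −0.02, Psmd1 on chromosome 1 at −0.07 and Psma7 on chromosome 2 at −0.32 are also among them. The part of the chromosome medians in the values of the members was not tested.

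Subtraction of the chromosome medians left 2 genes higher by the smaller step, Psmb7 at 0.45 and Psmd13 at 0.42. It left 3 lower by that step, namely Psmc1 at −0.45, Psma7 at −0.43 and Psmd10 at −0.39. After the same subtraction 19% of all measured genes were higher by that step and 16.5% lower, beside 22.6% and 15.9% before it. The shares of the other genes of like signal, 12.3% and 16.4% before the subtraction, were not counted after it. Psmc4 was then at 0.29, Psmd6 at 0.30, Psmc3 at 0.27, Psmc6 at 0.24 and Psmb5 at 0.22. At the lower end, Psmb1 on chromosome 17 (median of the other genes −0.17) changed to −0.19, and Psmc2 and Psmd9 on chromosome 5 (−0.18) both changed to −0.02. The SD between the members was 0.23 after this step, against 0.27 before it.

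**Figure D4:**
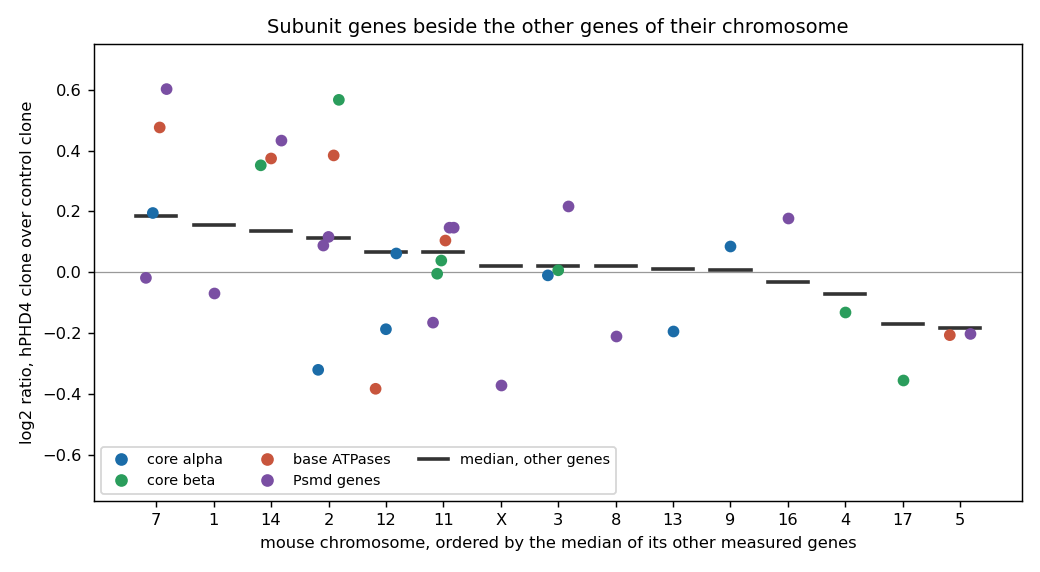
Log2 ratio, hPHD4 clone over control clone (y axis), of the measured subunit genes (points, coloured by group) on each mouse chromosome that carries one (x axis), beside the median of the other measured genes of that chromosome (black bars, by which the chromosomes are ordered). The 7 highest points lie on chromosomes 7, 14 and 2, towards the left, and both members on chromosome 5, at the right end, lie at its median.

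Other genes of the pathway were set beside the members in lists of related function. Of 37 such genes with a probe set of their own, 36 were measured. Their median log2 ratio was 0.02, with 19 above 0 (52.8%) and 17 below, beside 53.6% of all measured genes above 0. Higher by at least 1.5-fold were 2 and lower were 0, beside 8.94% and 5.22% of all measured genes. The immunoproteasome genes encode catalytic subunits that replace the constitutive ones under interferon. Psmb8, which replaces Psmb5, was at 0.22, with signals of 1353 in hPHD4 cells and 1162 in control cells, and Psmb10, which replaces Psmb7, was at 0.31. Psmb9, which replaces Psmb6, was at −0.48, with signals of 803 in hPHD4 cells and 1121 in control cells. In each pair the constitutive gene had the higher log2 ratio, by 0.13 for Psmb5 over Psmb8, 0.26 for Psmb7 over Psmb10 and 0.52 for Psmb6 over Psmb9. Each of these genes rests on 1 probe set, and 0.13 and 0.26 are less than the SD of 0.28 between bright probe sets. With chromosome medians subtracted, Psmb5 was at 0.22 and lay below Psmb8. Psmb10, at 0.29, was then the median of the 3 immunoproteasome genes, with Psmb9 at −0.31 and Psmb8 above it. The other pairs kept their order.

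The activators and the inhibitor that cap the core lay close to 0, between −0.08 for Psme4 and 0.13 for Psme1, over 4 genes; Psme2 shares its probe set with Psme2b and was not used. The assembly factors had a median of −0.03 over 6 genes. Among them Psmg1, an alpha ring assembly chaperone, had signals of 1359 in hPHD4 cells and 1858 in control cells (−0.45), and Psmg3 was at 0.12. The proteasome-bound deubiquitinases lay apart. Uchl5 was at 0.46 and Usp14 at −0.46, but the 3 probe sets of Usp14 ran between −1.05 and 0.01, and the brightest alone gave 0.01.

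All 4 measured shuttle receptors, which carry ubiquitinated proteins to the proteasome, had log2 ratios above 0, with a median of 0.26. The sign did not hold for all of them under every alternative. Above 0 lay 53.6% of all measured genes, so the count over 4 genes is not read further. Ubqln2 was the highest, with signals of 811 in hPHD4 cells and 500 in control cells (1.62-fold higher). A floor at the 20th percentile gave 0.28, and keeping all probe sets, with signals raised to the common floor, gave 0.19. Ubqln1 was the lowest at 0.03, and was at −0.05 with the brightest probe set and −0.0016 after centring on all genes. In the list of the Cdc48 unfoldase, which extracts ubiquitinated proteins from complexes, the median was 0.05 over 7 genes, from −0.20 for Faf1 to 0.36 for Ubxn1. Among regulators of proteasome genes the median was −0.01 over 7 genes. Nfe2l1 was at −0.17, with signals of 750 in hPHD4 cells and 844 in control cells, and Ngly1, the deglycosylase that NRF1 needs for its activation, was the lowest at −0.31. Stat3 averaged 0.66, on probe sets at 0.13 and 1.20.

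**Figure D5:**
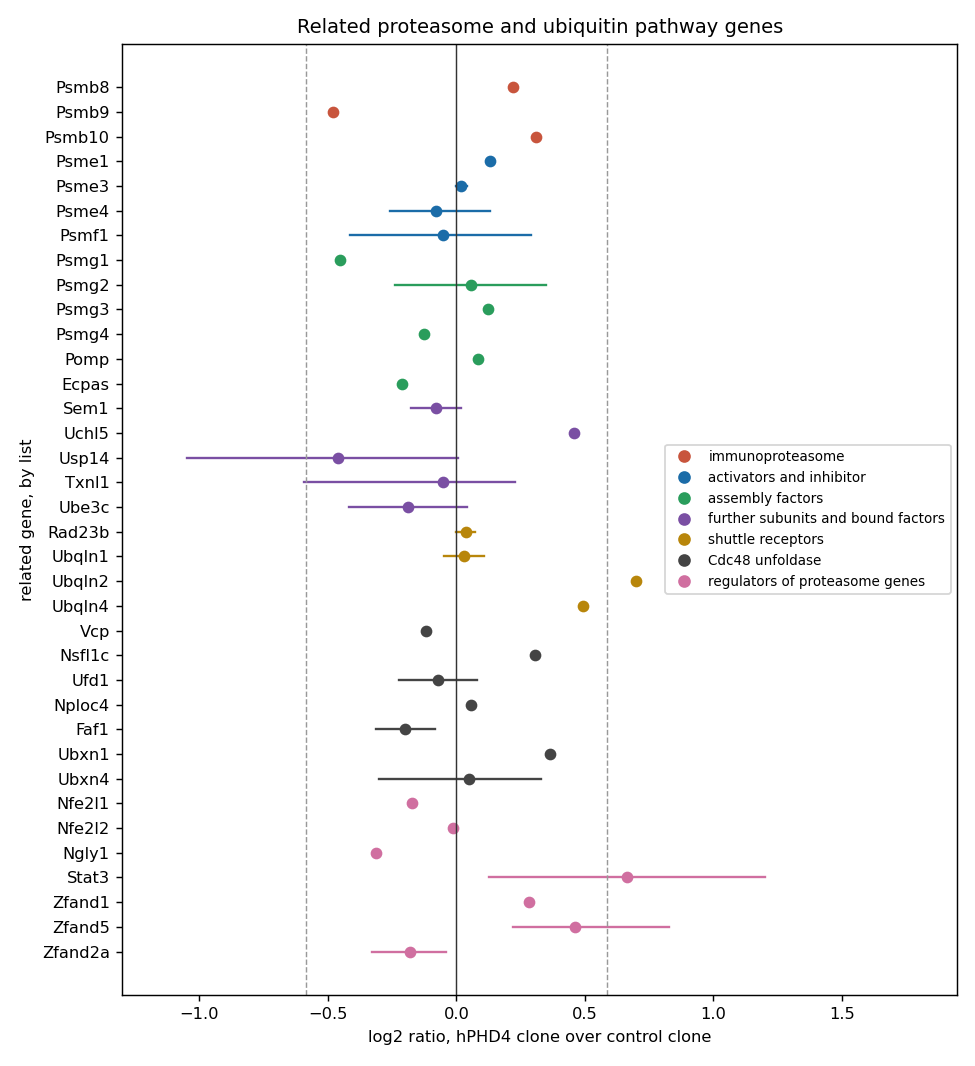
Log2 ratio, hPHD4 clone over control clone (x axis), of the 36 measured related genes (y axis, coloured by list); points are means over measured probe sets, lines run between the lowest and the highest probe set, and dashed lines mark 1.5-fold. Ubqln2 and Stat3 pass the upper line and no gene passes the lower one.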

How the data were processed

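Both arrays came from total RNA (5 µg per labelling, per the labels' protocols). The authors deposited 1 log2 signal for each probe set, which the submitters' processing notes credit to MAS5, of a version not given in the sources used here. Log base and scaling were read from the values, whose linear mean, after trimming 2% at each end, was 500.2 for both. MAS5 subtracts mismatch signals, so dim values are unstable, and the floor took the place of detection calls.

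Genes were named from the platform annotation, using probe sets with 1 symbol (20380 of 22690). A gene's value was its mean log2 ratio over measured probe sets, with no further scaling. Other genes of like signal lay between the 10th and 90th percentile of the members' mean signals. Named were the 3 highest and 3 lowest genes of each group, the catalytic genes, Psmd14, Psmd2 and Psmd4, genes past 1.5-fold, genes with probe sets over 1 apart across 0, and the extremes of related lists; others were named after their values were seen. Members and lists were chosen with earlier results of these data known. One related list was not analysed here. Steps were tested on simulated data with larger changes than those of the subunit genes and less noise than between probe sets here. Recovery of differences as small as those reported was not tested. Python 3.11.15, pandas 2.3.3 and statsmodels 0.14.6 (loess, span 0.3) were used.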

Additional observations from a re-analysis of the deposited data

How the results depend on the processing

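With 1 array per clone the number of arrays limits the precision, and no library could be left out. No paired analysis was possible because each group holds 1 sample and no result comes from a test. The alternatives were quantile normalization, loess correction, centring on the median of all genes, floors at the 20th and 60th percentile, no filter (all probe sets kept, signals raised to the higher of both floors), the brightest probe set, only probe sets not ending in _x_at, _s_at or _a_at (those that can match several transcripts), subtraction of chromosome medians, and other fold steps. A value counted as moved when it changed by more than the SD between probe sets (0.35), divided for a median by the square root of its number of genes.

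The subunit median ran between −0.017 (chromosome medians subtracted) and 0.09, and the SD between 0.23 and 0.30. The Psmd median was 0.0039 with the floor at the 60th percentile, −0.018 without those probe sets and −0.0083 with chromosome medians subtracted. At least 1.5-fold higher was 1 gene; 2 were with quantile normalization or loess correction (Psmb7 joined Psmd13) and with no filter (Psma8 joined it, at the raised floor), and 0 were with centring, the brightest probe set, without those probe sets or with chromosome medians subtracted. At a 2-fold step 0 were higher, and at the smaller step, a log2 ratio of at least 0.322, 7 were higher and 3 lower. The smaller step with chromosome medians subtracted, added after seeing the data, gave 2 higher and 3 lower. Of the 34 measured subunit genes, 25 had a value under all 9 alternatives that changed the values, and 9 had none without those probe sets. The sign was that of the reported value under every alternative that gave one for 23 genes, and was opposite under at least 1 for 11.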
